A study of Mus musculus with 6 samples.

Results

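Scavenger receptors are surface proteins with which macrophages bind and take up modified lipoproteins, dying cells, microbes and spent plasma proteins. The 9 genes described here are Stab1, Msr1, Marco, Cd36, Scarb1, Mrc1, Lrp1 and Cd163, which encode such receptors, and Cd5l, which encodes a secreted protein with the same cysteine-rich domain (SRCR) as Cd163, Marco and Msr1. They were selected by symbol, and all 9 were found among the 45193 Ensembl genes of the count table. Messenger RNA was measured by RNA sequencing in bone marrow-derived macrophages (BMDM), grown from mouse marrow for 6 days in medium with 20% serum and 30% conditioned medium of L929 cells, which supplies the growth factor CSF-1. All cells were then moved to serum-free medium with DMSO, a solvent, for 3 hours, and the study added no receptor ligand to these libraries. The WT group (n = 3 libraries) came from C57BL/6J mice. The RXRKO group (n = 3) came from mice of genotype RXRafl/flLysMCre RXRb-/- on the same labelled background, in which Cre, driven by the lysozyme M gene Lyz2, is meant to remove the loxP-flanked part of Rxra in myeloid cells, and Rxrb is inactivated in all cells. No Cre is described for the WT cells, so effects of the receptors, of Cre and of the altered Lyz2 locus cannot be told apart. The labels call the replicates biological without naming animals, so each p-value refers to the spread among these libraries, which may be technical.

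The receptors differ in what they bind. Msr1 and Marco (class A) bind modified lipoproteins and microbes. Cd36 and Scarb1 (class B) handle oxidized lipoproteins, fatty acids and the cholesterol of high-density lipoprotein. Stab1 (stabilin-1) clears matrix fragments and sorts lysosomal cargo, Mrc1 (the mannose receptor CD206) takes up glycoproteins, Cd163 takes up haptoglobin-haemoglobin, and Lrp1 is a giant receptor for apolipoprotein E, proteases and their inhibitors. Cd5l (also called AIM) limits macrophage death and binds fatty acid synthase. RXR proteins pair with the oxysterol receptors LXR and the lipid-sensing receptors PPAR. From earlier work, which these files do not test, Cd5l is known as a target of LXR, and Cd36 as a target of PPAR gamma.

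The libraries held 7880320 to 14957253 counts in WT and 17250051 to 25091019 in RXRKO. Mean depth was thus 1.87 times higher in RXRKO (exact permutation test, two-sided p = 0.1, the minimum for 3 libraries against 3), and depth and genotype cannot be told apart. Levels are given as CPM, counts per 1000000 counts of the library in genes kept by a filter on low counts, after scaling with TMM factors. Rxrb fell from 66.7 ± 1.86 to 9.27 ± 2.09 CPM (SD, n = 3) and Lyz2 from 15258 ± 594 to 28.4 ± 6.12 CPM. Rxra stood at 104 ± 6.70 and 109 ± 4.83 CPM, but gene-level counts cannot check whether the loxP-flanked part was removed. Xist, the X-inactivation RNA of female cells, had 0 reads in every WT library and 209 to 267 CPM in the RXRKO libraries. The Y-linked gene Ddx3y stood at 101 to 112 CPM in WT and at 49.7 to 55.4 CPM in RXRKO, so sex-linked transcripts move with genotype. Every RXRKO library thus held both Xist and Y-linked reads, while the WT libraries held Y-linked reads without Xist. The labels give neither the sex of the mice nor any pooling, and genotype and these sex-linked differences cannot be told apart. The part of sex in the results below was not tested. All 12 macrophage identity genes passed the filter on low counts (median log2 fold change -0.13). Of them 3 were higher, 3 lower and 6 not called, beside 19.4% called over all tested genes. The lower count was 2 without any one library other than RXRKO replicate 3. Their summed level was 9432 to 10204 CPM in WT and 10019 to 10968 CPM in RXRKO. The most abundant, the CSF-1 receptor gene Csf1r, rose from 2216 ± 141 to 2914 ± 208 CPM, while Aif1, chosen after its values were seen, fell from a mean of 106 to 64.3 CPM. In bulk RNA, fewer cells of a type and less RNA per cell cannot be told apart.

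Upstream sequences of Cd5l, Stab1 and Cd36 are shown because Stab1 had the largest rise and Cd5l and Cd36 the largest falls of the 9. RefSeq's GRCm38.p6 table gave a start site for 7 of the 9 genes, and each sequence below is the 250 bases before it, 5′ to 3′ on the gene's strand. Capitals mark every match, on either strand, to AGGTCA (the single element of nuclear receptors such as RXR), TGCTGA (an arm of the element of MAF factors) or GAGGAA (a core of sites of the macrophage factor PU.1), and to the MAF palindrome TGCTGANNTCAGCA, which was chosen after the Cd5l sequence was seen.
Cd5l, chr3:87357631-87357880, plus strand: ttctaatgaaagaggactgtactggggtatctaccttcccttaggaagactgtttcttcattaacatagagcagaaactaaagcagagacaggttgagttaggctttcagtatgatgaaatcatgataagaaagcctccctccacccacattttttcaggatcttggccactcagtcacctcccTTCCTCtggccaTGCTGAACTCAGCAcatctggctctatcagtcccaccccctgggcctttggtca
Stab1, chr14:31168642-31168891, minus strand: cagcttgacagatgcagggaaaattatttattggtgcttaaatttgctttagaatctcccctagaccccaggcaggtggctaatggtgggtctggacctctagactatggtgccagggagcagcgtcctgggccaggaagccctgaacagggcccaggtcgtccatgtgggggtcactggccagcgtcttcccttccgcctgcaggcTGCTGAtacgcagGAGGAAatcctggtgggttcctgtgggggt
Cd36, chr5:17835897-17836146, minus strand: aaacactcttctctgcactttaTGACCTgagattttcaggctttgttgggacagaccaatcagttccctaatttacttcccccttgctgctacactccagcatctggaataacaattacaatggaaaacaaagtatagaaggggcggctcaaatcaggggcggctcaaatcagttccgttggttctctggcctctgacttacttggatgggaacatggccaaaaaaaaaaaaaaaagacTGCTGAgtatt
The Cd36 start is 1 of several, since GENCODE models of this gene also begin further upstream.

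The window of Cd5l held the whole MAF palindrome, from 54 to 41 bases before the start, and next to it a GAGGAA core on the minus strand, from 66 to 61 bases before the start. This palindrome stood in 2 of 32851 promoter windows of the same length, and its arms are also counted as matches to TGCTGA. That arm by itself stood in 16.1% of all windows, and in those of Cd5l, Stab1 and Cd36 among the 7. AGGTCA stood in 14.0% of all windows and, among the 7, in that of Cd36, from 228 to 223 bases before the start. GAGGAA stood in 23.3% of all windows and in those of Cd5l, Stab1, Marco and Mrc1. The AGGTCA repeats AGGTCANAGGTCA and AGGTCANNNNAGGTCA stood in none of the 7, and in 11 and 5 of all windows. A match describes these letters and is not evidence of binding.

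The genes moved in both directions. All 9 passed the filter on low counts, and 3 rose, 3 fell and 3 were not called (edgeR quasi-likelihood, Benjamini-Hochberg adjusted p under 0.05 over all 12011 tested genes). Of all tested genes 19.4% were called, 9.77% higher and 9.61% lower, and of tested genes with an average log2 CPM of at least 5, as 8 of the 9 have, 24.7%. The values of the 2 genotypes did not overlap for 6 of the 9, the same 6 that were called, with 3 apart upward and 3 downward. Groups were apart for 36.9% of all tested genes (19% upward, 17.9% downward) and for 43.6% of those with an average log2 CPM of at least 5. The median log2 fold change of the 9 was 0.036, beside -0.0048 over all tested genes. The summed level of the 9 overlapped between the genotypes on the CPM scale, where long genes weigh most, with 9404 to 10152 CPM in WT and 9858 to 10238 CPM in RXRKO. Per kilobase of transcript the sums lay apart, with 2175 to 2268 CPM per kb in WT and 1647 to 1781 CPM per kb in RXRKO.

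**Figure D1:**
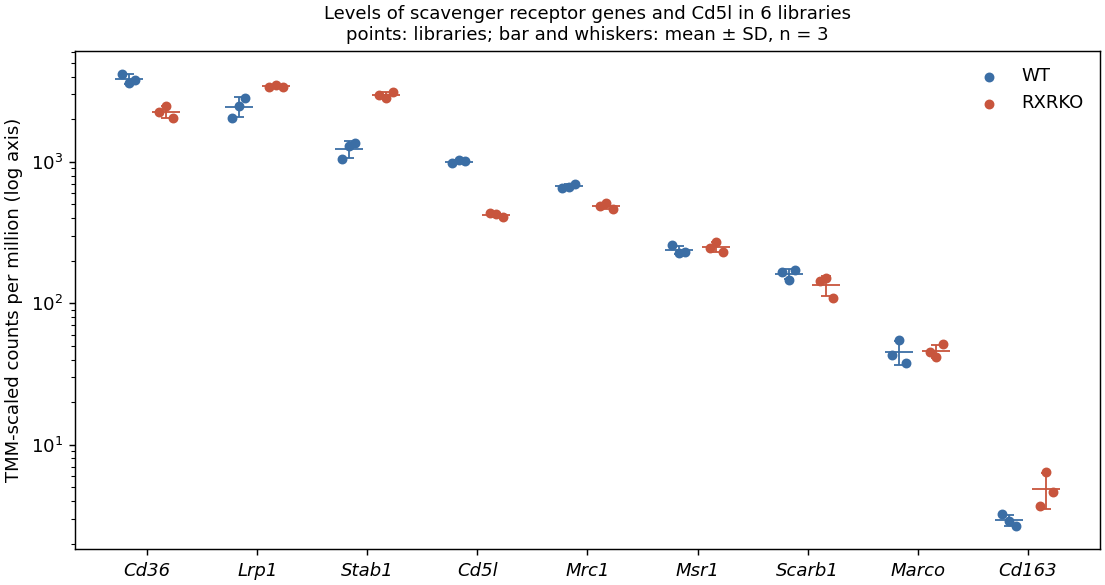
TMM-scaled CPM (log axis) of the 9 genes in 3 WT (blue) and 3 RXRKO (red) libraries, with the mean ± SD of each genotype. The 2 sets of points lie apart for Cd36, Lrp1, Stab1, Cd5l, Mrc1 and Cd163 and overlap for Msr1, Scarb1 and Marco.

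The order of the levels per length changed between the genotypes. On the scale of CPM per kilobase of the longest coding transcript, Cd36 led in WT (1140 ± 87.9), followed by Cd5l (494 ± 13.3), Lrp1 (165 ± 26.7), Stab1 (155 ± 20.9), Mrc1 (125 ± 3.84), Msr1 (65.6, from 62.1 to 70.8), Scarb1 (64.1 ± 5.13), Marco (23.5 ± 4.59) and Cd163 (0.657 ± 0.0615). In that order Lrp1 and Stab1, and Msr1 and Scarb1, overlapped between their libraries. In RXRKO, Cd36 (666 ± 61.1) was followed by Stab1 (372 ± 17.9), Lrp1 (230 ± 5.06) and Cd5l (208 ± 5.88), and the libraries of these 4 genes did not overlap. Mrc1 (90.8 ± 4.78), Msr1 (68.8 ± 5.65), Scarb1 (53.5 ± 8.67), Marco (23.9 ± 2.52) and Cd163 (1.10 ± 0.311) came after them. These levels were not adjusted for the trend of genotype differences with length and GC content described below. Whether the order of Lrp1 and Cd5l in RXRKO would hold with that trend taken out was not tested.

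**Figure D2:**
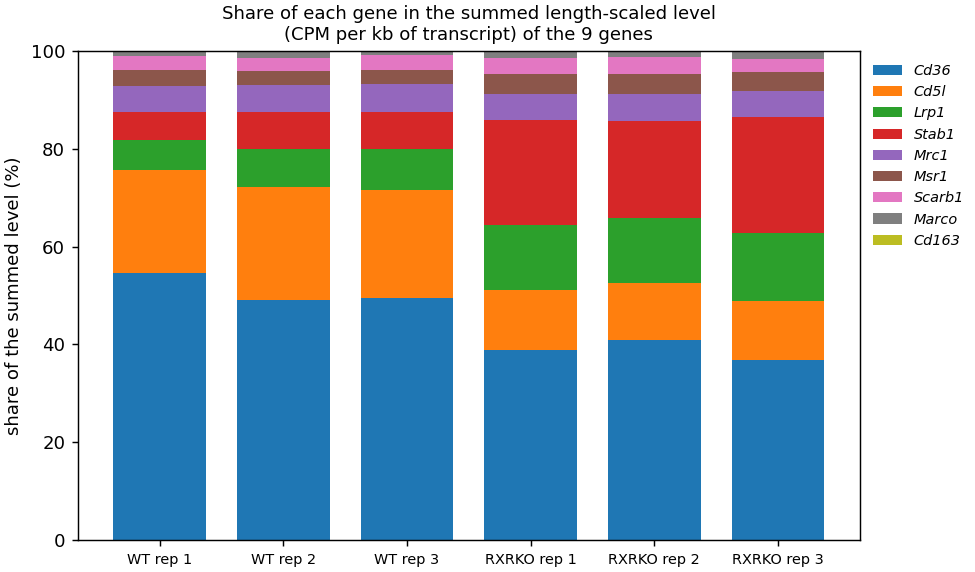
Share (%) of each gene in the summed length-scaled level (CPM per kb) of the 9 genes, 1 bar per library. Stab1 makes up 5.78% to 7.56% of the WT bars and 20.0% to 23.7% of the RXRKO bars, while Cd5l makes up 21.1% to 23.2% and 11.7% to 12.4%.

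Cd5l, the secreted SRCR protein, fell by more than any other of the 9. Its level was 975, 1027 and 1015 CPM in WT replicates 1, 2 and 3, and 433, 425 and 410 CPM in RXRKO replicates 1, 2 and 3. The genotypes lay far apart against a spread of under 3% within each (coefficient of variation 2.69% and 2.83%). The log2 fold change was -1.25 (SE 0.075, edgeR adjusted p = 2.72e-07), which leaves 42.0% of the WT level. With each library left out in turn it ran from -1.28 to -1.23.

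Cd36, the class B receptor for oxidized lipoproteins and long-chain fatty acids and the most abundant of the 9 in WT, fell as well. Its level was 4207, 3626 and 3796 CPM in WT and 2259, 2473 and 2058 CPM in RXRKO, in replicate order. Every RXRKO library lay below every WT library, at a mean of 58.4% of the WT level (log2 fold change -0.78, SE 0.091, edgeR adjusted p = 8.30e-05). Mrc1, the mannose receptor often used as a marker of alternatively activated macrophages, fell by less. It stood at 657, 665 and 696 CPM in WT and at 490, 513 and 462 CPM in RXRKO (-0.46, SE 0.077, edgeR adjusted p = 0.00112). Its groups were also apart, and its RXRKO mean was 72.6% of the WT mean. Mrc1 (chromosome 2, 14229392 to 14332057) lies 13.3 Mb from Rxra. Of the 8 other tested genes within 1 Mb of Mrc1, 1 fell and 0 rose, beside 9.61% lower and 9.77% higher over all tested genes.

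Stab1 rose by more than any other of the 9. Stabilin-1 (ENSMUSG00000042286, chromosome 14, 31139013 to 31168641) stood at 1049, 1302 and 1366 CPM in WT and at 2954, 2842 and 3126 CPM in RXRKO. WT replicate 1 was the lowest library, and the lowest RXRKO value was still above the highest WT value. The log2 fold change was 1.26 (SE 0.10, edgeR adjusted p = 3.60e-06), a mean of 240% of WT, and it ran from 1.15 without WT replicate 1 to 1.33 without WT replicate 3. Exons of Stab1 share 112 bases, 1.09% of its merged exons, with Nt5dc2 on the other strand, and whether the counting used strand is not given in the sources used here. Nt5dc2, looked up because of this overlap, stood at 90.3 ± 16.8 and 77.9 ± 12.6 CPM (edgeR adjusted p = 0.315), far below Stab1. The ratio of Stab1 to Cd5l CPM was 1.08 to 1.35 in WT libraries and 6.69 to 7.63 in RXRKO libraries.

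Stab1 is also a gene of sinusoidal and lymphatic endothelium. Of 10 endothelial markers, 4 were tested, and 2 rose and 2 fell, beside 19.4% called over all tested genes. The summed level of the 10 was 49.8 to 53.0 CPM in WT and 124 to 145 CPM in RXRKO. Most of that sum was Vwf, the von Willebrand factor gene (43.0 ± 2.49 to 122.8 ± 12.1 CPM, log2 fold change 1.51), while the Stab1 paralogue Stab2 fell (3.32 ± 0.441 to 1.03 ± 0.503 CPM). Clec4g, of sinusoidal endothelium, had 0 reads in all libraries. Cdh5 and Tek of the same list, chosen after their values were seen, stood at 0.303 and 0.0781 CPM in WT. In RXRKO they stood at 0.154 and 0.0543 CPM. The part of endothelial cells in the Stab1 difference was not tested.

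Lrp1, the giant endocytic receptor (ENSMUSG00000040249, chromosome 10, 127538161 to 127621148), was higher in the main test, but the call was lost with offsets for length and GC content in 1 fit. Offsets for length alone were not tested. It stood at 2045, 2502 and 2838 CPM in WT and at 3368, 3513 and 3406 CPM in RXRKO. The WT libraries spread over a coefficient of variation of 16.2%, with replicate 1 lowest as for Stab1, and the RXRKO libraries over 2.20%. The log2 fold change was 0.48 (SE 0.11, edgeR adjusted p = 0.00693). With offsets that take out the trend with length and GC it was 0.13 (edgeR adjusted p = 0.189). Lrp1 lies 10.3 Mb from Lyz2. Of the 52 other tested genes within 1 Mb of Lrp1, 5 rose and 5 fell, with a median log2 fold change of -0.0036. The shares over all tested genes were 9.77% higher and 9.61% lower.

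Cd163, the haemoglobin scavenger receptor of mature tissue macrophages, was read few times. It had 31, 22 and 41 reads in WT (3.22, 2.87 and 2.68 CPM) and 63, 161 and 85 reads in RXRKO (3.66, 6.39 and 4.62 CPM). The groups did not overlap, but the gap between the nearest libraries was small beside the spread within RXRKO. The log2 fold change was 0.77 (SE 0.25, edgeR adjusted p = 0.0447), just inside the threshold. The call was lost without WT replicate 1 (0.84), WT replicate 2 (0.76), WT replicate 3 (0.69) or RXRKO replicate 2 (0.51), and with DESeq2, limma or the length and GC offsets.

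The class A receptors and Scarb1 did not pass the test. Msr1 stood at 257, 226 and 232 CPM in WT and at 246, 272 and 232 CPM in RXRKO, with overlapping groups (log2 fold change 0.069, SE 0.088, edgeR adjusted p = 0.631). Its value ran from 0.0015 without RXRKO replicate 2 to 0.12 without WT replicate 1. Marco stood at 43.1, 54.9 and 37.6 CPM in WT and at 45.0, 41.8 and 51.3 CPM in RXRKO, and the WT libraries spanned all RXRKO values (0.036, SE 0.13, edgeR adjusted p = 0.882). Its sign turned without WT replicate 3 or RXRKO replicate 3. Scarb1, the receptor for high-density lipoprotein, stood at 167, 147 and 171 CPM in WT and at 144, 150 and 110 CPM in RXRKO (-0.26, SE 0.11, edgeR adjusted p = 0.128). RXRKO replicate 3 was its lowest library, and without it the value was -0.13. For Scarb1 a difference of this size was not resolved by 3 libraries a genotype, which does not show that the levels were equal.

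**Figure D3:**
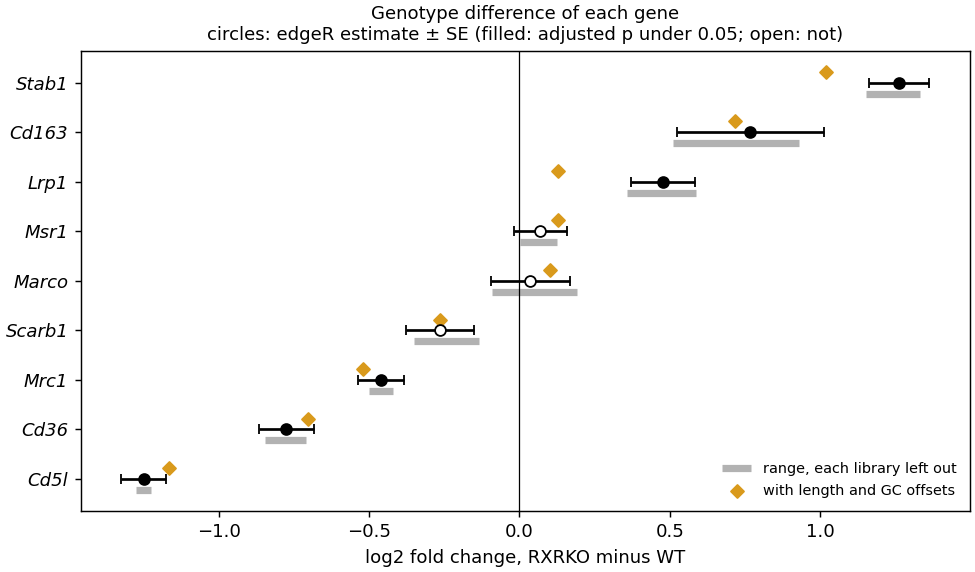
Log2 fold change (RXRKO minus WT) of each gene with its SE (circles, filled where the adjusted p was under 0.05), the range with each library left out (grey bars) and the value with length and GC offsets (diamonds). The diamond of Lrp1 lies at 0.13, away from its circle at 0.48, and that of Stab1 at 1.02 against 1.26.

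Transcript length moved with genotype over all tested genes, and Stab1 and Lrp1 are long and GC-rich. Their longest coding transcripts are 7999 bases with 57.3% GC and 14888 bases with 57.9% GC, and those of the other 7 genes run from 1925 to 5374 bases. The median log2 fold change was -0.21 for the 785 tested genes with transcripts of up to 1 kb and 0.22 for the 602 genes over 8 kb. Among genes with over 55% GC it was 0.19 for 527 genes from 4 to 8 kb, where Stab1 stands at the top edge, and 0.45 for 56 genes over 8 kb. The value of Lrp1 was near the median of long GC-rich genes, while that of Stab1 was well above both medians. In those 56 genes the median deviation from the mean of all libraries was -0.42 in WT replicate 1, -0.25 in WT replicate 2, -0.044 in WT replicate 3 and 0.22 to 0.29 in the RXRKO libraries. Stab1 kept its call with the offsets (1.02, edgeR adjusted p = 5.18e-06), as did Cd5l (-1.17), Cd36 (-0.70) and Mrc1 (-0.52). The offsets take out any trend with length and GC, technical or not.

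**Figure D4:**
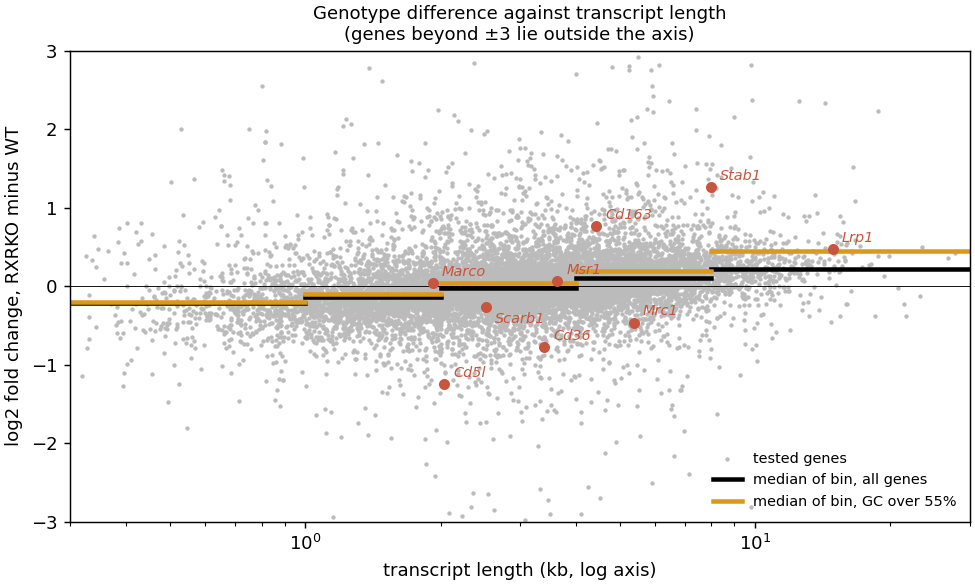
Log2 fold change (RXRKO minus WT) of each tested gene against transcript length in kb (log axis), with the 9 genes in red and medians of length bins for all genes (black) and for genes over 55% GC (yellow). Lrp1 lies beside the yellow median of its bin, 0.45, and Stab1, Cd5l, Cd36 and Mrc1 lie away from the medians of theirs.

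Other scavenger receptors moved in both directions. Of 14 listed, 9 were tested, of which 1 rose, 2 fell and 6 were not called (median log2 fold change -0.086). Over all tested genes 9.77% were called higher and 9.61% lower, and the counts of the lists that follow stand beside the same shares. The most abundant, Cd68 (macrosialin, chosen after its values were seen), stood at 1367 ± 270 and 1281 ± 259 CPM with overlapping groups and was not called (-0.095, edgeR adjusted p = 0.749). Colec12, a class A member also called scavenger receptor with C-type lectin, rose from 14.8 ± 2.10 to 33.4 ± 6.69 CPM (1.16, SE 0.16, edgeR adjusted p = 2.70e-04). Scarb2, the class B relative that sits in lysosomes, fell from 228 ± 7.87 to 146 ± 7.93 CPM (-0.64), and Stab2 fell (-1.63) on 107 and 66 reads. The paralogues Stab1 and Stab2 were thus called in opposite directions, while the difference between Scarb1 and Scarb2 was not tested. Of 5 tested SRCR proteins beside the 9 genes, Lgals3bp, a secreted galectin-binding protein, fell from 500.2 ± 41.8 to 367 ± 15.6 CPM (-0.45), as Cd5l did, and the other 4 did not pass. Among the mannose receptor family and related lectins 3 were tested, of which Clec4n (dectin-2) rose (1.07) and Clec10a fell (-2.81).

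Relatives and regulators of Lrp1 moved both ways. Of 14 tested genes of the Lrp1 family and its regulators, 4 rose, 2 fell and 8 were not called (median 0.067). Mylip, which encodes a ubiquitin ligase, stood at 64.1 ± 9.49 CPM in WT and fell to 29.8 ± 2.64 CPM in RXRKO (-1.11, SE 0.12, edgeR adjusted p = 3.05e-05). Sort1, the sorting receptor sortilin, fell from 149 ± 11.9 to 60.0 ± 3.01 CPM (-1.32), and Lrp12 rose (0.52). Sorl1 rose (0.37), but the call was lost without WT replicate 1 (0.32), WT replicate 2 (0.31) or RXRKO replicate 1 (0.35) and with the offsets (0.14). Without WT replicate 1 or RXRKO replicate 1, and with the offsets, 2 members of the list rose. The list's chaperone gene Lrpap1, chosen after its values were seen, did not pass (140 and 159 CPM).

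Ligands of these receptors were split as well. Of 17 tested, 3 rose, 3 fell and 11 were not called (median -0.14), and 5 fell without RXRKO replicate 3. Thbs1, which encodes the Cd36 ligand thrombospondin-1, rose from 9.79 ± 1.25 to 20.3 ± 1.91 CPM (1.04), and Plau, the urokinase gene whose inhibitor complexes are cleared by Lrp1, rose from 367 ± 55.5 to 611 ± 15.5 CPM (0.74). Cd47, a partner of thrombospondin-1, fell (-0.48), as did the collagen gene Col4a1 on 119 and 47 reads (-2.16, and -2.97 without RXRKO replicate 3). Lpl, lipoprotein lipase, fell from 11241 ± 1059 to 8944 ± 349 CPM (-0.33), a call lost without WT replicate 1 (-0.27) or RXRKO replicate 1 (-0.34). Tfpi, an Lrp1 ligand, rose (0.36), a call lost without WT replicate 1 (0.34), WT replicate 2 (0.36), RXRKO replicate 1 (0.37) or RXRKO replicate 2 (0.32).

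Genes of co-receptors, kinases and endocytic adaptors held calls in both directions. Of 25 tested, 4 rose, 3 fell and 18 were not called (median 0.053), beside 19.4% called over all tested genes. Itga6, an integrin gene, rose from 123 ± 9.75 to 225 ± 13.2 CPM (0.86), Cav1 (caveolin-1) fell from 14.2 ± 3.52 to 6.65 ± 1.22 CPM (-1.11), and Ap2m1, a clathrin adaptor subunit gene, fell (-0.38). Tlr2, a receptor that works with Cd36, fell from 112 ± 14.3 to 81.3 ± 4.74 CPM (-0.46). Src rose (0.33), a call lost without any one library (0.29 to 0.36), and Pdzk1ip1 rose (0.79), a call kept only without RXRKO replicate 2 among the libraries left out (0.66 to 0.96). The count that rose was 1 without WT replicate 2 or RXRKO replicate 1 and 2 without WT replicate 1, WT replicate 3 or RXRKO replicate 2. Of 6 tested sheddases and inhibitors, Mmp14, a membrane protease gene, fell from 25.8 ± 5.83 to 9.12 ± 1.35 CPM (-1.52), Rhbdf2, which carries the sheddase ADAM17 to the surface, rose (0.51), and 4 did not pass. Without WT replicate 3 or RXRKO replicate 3, 2 of that list rose.

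**Figure D5:**
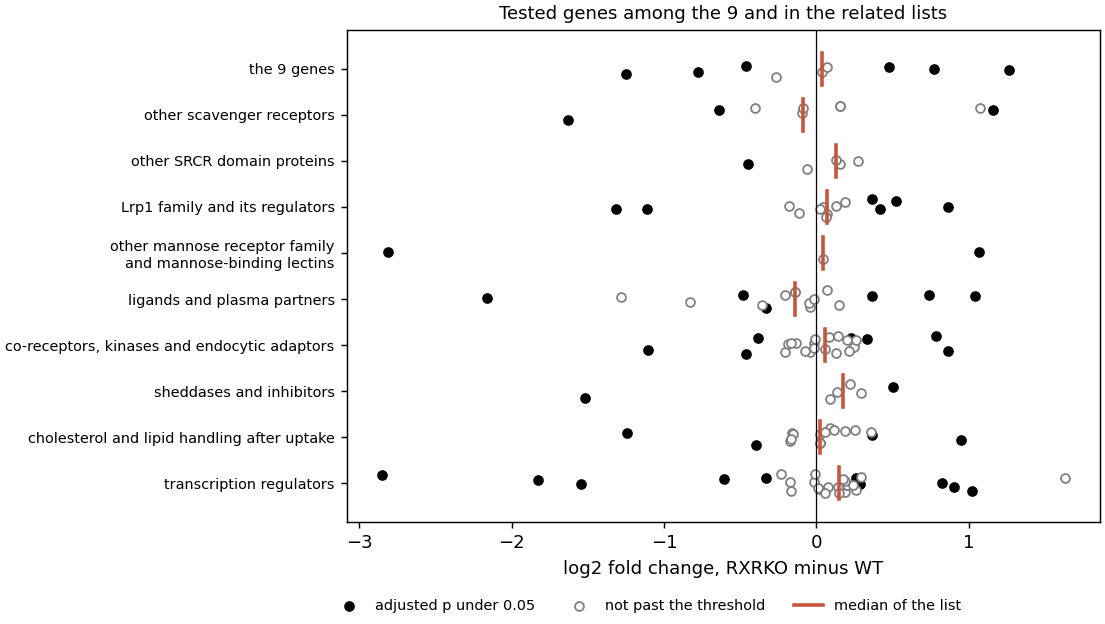
Log2 fold change (RXRKO minus WT) of the tested genes among the 9 and in each related list, with filled points past the adjusted p threshold and the list's median as a red line. Every list median lies between -0.14 and 0.18, and called genes stand on both sides of 0 in each list except the other SRCR proteins, which have 1 called gene.

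Downstream of uptake, lipid handling genes held examples in both directions. All 17 were tested, and 2 rose, 2 fell and 13 were not called (median 0.025). Plin2, the coat protein of lipid droplets, fell from 1701 ± 65.5 to 718 ± 20.8 CPM (-1.24), and the cholesterol exporter gene Abcg1 fell from 410 ± 20.8 to 312 ± 5.00 CPM (-0.39). The exporter gene Abca1 rose from 277 ± 34.6 to 536 ± 17.1 CPM (0.95), and Fabp5 rose (0.36), a call lost without WT replicate 1 (0.36), WT replicate 2 (0.29), RXRKO replicate 1 (0.31) or RXRKO replicate 2 (0.32). The count that rose was 1 without any of these 4 libraries and 4 without WT replicate 3. Hmox1, the haem oxygenase that acts after Cd163, did not pass (502 and 444 CPM, chosen after its values were seen).

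Among transcription regulators, Nr1h3, which encodes LXR alpha, had the largest fall beside the targeted Rxrb. It went from 81.8 ± 8.66 to 23.0 ± 1.95 CPM (-1.83, SE 0.11, edgeR adjusted p = 2.72e-07). Of 30 tested, 5 rose, 5 fell, Rxrb among them, and 20 were not called (median 0.15). The MiT-family gene Tfec fell (-0.60), while the retinoic acid receptor gene Rarg (0.90), Klf4 (0.82) and Irf4 rose (1.02, and 0.93 without WT replicate 1, where its call was lost). The count that rose was 2 without WT replicate 1 and 3 without RXRKO replicate 1. Chosen after their values were seen, Maf did not pass (288 and 328 CPM, edgeR adjusted p = 0.0990), nor did Pparg (78.8 and 87.2 CPM, edgeR adjusted p = 0.260).

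The profiles of Stab1 and Cd5l over the 6 libraries were set against 7478 genes with an average log2 CPM of at least 4, by Euclidean distance between log2 CPM centred on each gene's mean. Nearest to Stab1 were Jade2 (distance 0.20), the adhesion receptor gene Adgrg6 (0.26) and Ltbp3, which encodes a binding protein of latent TGF-beta (0.27). Nearest to Cd5l were the transferrin receptor gene Tfrc (0.11), Plin2 (0.12) and the integrin gene Itgav (0.17). Since 1 difference between genotypes dominates each profile, these are genes with a like difference, and Tfrc, at 248 and 106 CPM (-1.23), fell by nearly the same amount as Cd5l.

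Markers of other cells were counted beside these results, and 19.4% of all tested genes were called. Of 10 neutrophil markers 1 was higher and 3 were lower (summed level 1079 to 1224 CPM in WT and 989 to 1101 CPM in RXRKO), with Ngp most abundant (377 and 313 CPM). Monocyte markers summed to 194 to 223 and 176 to 220 CPM, with 1 higher and 2 lower of 6, and Chil3 (145 and 143 CPM) most abundant. Of 8 dendritic cell markers 1 was tested and rose, Itgax (170 and 245 CPM), which macrophages also express, and the list summed to 168 to 178 and 240 to 253 CPM. Lymphoid markers summed to 46.2 to 54.9 and 25.4 to 31.7 CPM, nearly all from Ighm, the 1 tested of 8, which fell (-0.83). Resident macrophage markers were 1 higher and 3 lower of 5 tested (median log2 fold change -0.71). Folr2, the most abundant (518 and 595 CPM), was the 1 not called (0.20, edgeR adjusted p = 0.126), and Clec4f, of Kupffer cells, had 0 reads. Fibroblast markers (10.2 to 11.7 and 4.49 to 10.7 CPM, 0 higher and 1 lower of 3 tested, Col1a1 most abundant) and mast cell markers (1.97 to 2.48 and 2.09 to 3.14 CPM, 0 called of 1 tested, Kit) were low. Adipocyte markers, which matter for Cd36, summed to at most 0.311 and 0.761 CPM, with none tested and Cidec most abundant. Erythroid and megakaryocyte markers summed to 83.1 to 112 and 71.4 to 89.3 CPM, nearly all Pf4, with 0 called of 3 tested and the globin genes Hba-a1 and Hbb-bs at 0 reads. With 1 library left out, the higher count became 0 for neutrophil markers (without WT replicate 1, WT replicate 3 or RXRKO replicate 1) and for monocyte markers (without WT replicate 1, WT replicate 2, RXRKO replicate 1 or RXRKO replicate 2). It became 2 for resident macrophage markers without RXRKO replicate 3 and 0 without any other library. The lower count became 0 for monocyte markers without WT replicate 1 and 1 without WT replicate 3 or RXRKO replicate 1, 3 for monocyte markers and 2 for fibroblast markers without RXRKO replicate 3, 4 for resident macrophage markers without WT replicate 1, 2 for neutrophil markers without any one library other than WT replicate 3, and 1 for erythroid and megakaryocyte markers without WT replicate 3 or RXRKO replicate 3. The part of any of these in the differences of the 9 genes was not tested.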

How the data were processed

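The 9 genes, the related lists and the tests were chosen with earlier results of these data known. Per the labels' protocols, poly(A) RNA (100 ng of input) was sequenced single-end with a 75-cycle kit. TopHat2 2.0.7 and DESeq, with build mm10 (GRCm38), are named in the submitters' processing notes. For the counting program, annotation and strand setting, nothing is given in the sources used here. The authors deposited raw counts for 45193 Ensembl genes, of which 45106 matched a symbol. The authors' second table holds log2 values, which equal log2 of the count times 1 constant a library (spread of the ratio at most 0.00019%), and counts that scale to below 1 are listed there at 0.

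Genotypes were compared on these counts with edgeR 4.0.16 under R 4.3.3, by robust quasi-likelihood F tests with TMM factors and genotype alone, on 12011 genes kept by filterByExpr (minimum count 10, minimum total 15), Benjamini-Hochberg adjusted with threshold 0.05. SE values were computed from the log2 fold change and F, and so restate the test. CPM divide each count by the library's total over the kept genes times its TMM factor. Lengths, GC and positions came from GENCODE M21 (GRCm38), upstream sequences from RefSeq (GRCm38.p6). On simulated counts for this comparison, run on 12011 genes, the test recovered 62% of 50 genes changed 1.5-fold and 86% of 50 changed 2-fold. It also called 14 unchanged genes. The simulation changed far fewer genes than were called in the data and held no trend with length or GC, so recovery in the data may differ. Named genes were the 9, the targeted loci, up to 3 higher and 3 lower genes of smallest adjusted p in each related list, the most abundant gene of each marker list, and the 3 nearest profiles; other names are marked, and a few genes of the rule are not reported here. Alternatives were RLE and upper-quartile factors, library totals, other filters, DESeq2 1.42.0, limma 3.58.1 (voom, and the authors' values with pseudocounts 1 and 5), the replicate number as a block, length and GC offsets, thinning to the shallowest library, and leaving out each library.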

Additional observations from a re-analysis of the deposited data

How the results depend on the processing

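Stab1, Cd5l, Cd36 and Mrc1 kept their direction and call in all 18 alternatives run, with log2 fold changes from 1.02 to 1.33, -1.28 to -1.17, -0.85 to -0.70 and -0.52 to -0.42. Lrp1 kept its call except with length and GC offsets (0.13), where 1 of the 9 genes rose. The cause was not tested. Cd163 lost its call with DESeq2 (0.75, adjusted p = 0.103), limma-voom (0.76), limma on the authors' values with pseudocount 1 (0.70) or 5 (0.66) and the offsets (0.72), and ran from 0.51 to 0.93 with each library left out. The cause was not tested. Thinned to the shallowest library it kept its call (0.81, adjusted p = 0.0335). Marco turned sign without WT replicate 3 (-0.091) or RXRKO replicate 3 (-0.045), never with a call (range -0.091 to 0.19), and with each library left out Lrp1 ran from 0.36 to 0.59. With each library left out, 667 to 1278 tested genes rose (1173 with all) and 619 to 1329 fell (1154 with all). The lowest counts came without WT replicate 1 (667 and 619) and RXRKO replicate 1 (697 and 686). In the related lists, 12 (without WT replicate 1 or RXRKO replicate 1) to 21 genes rose (21 with all). Signs also turned for Rxra with the offsets (-0.071), Col1a1 without RXRKO replicate 2 (0.037) and Chil3 with the offsets (0.15), without WT replicate 1 (0.043) or without RXRKO replicate 3 (0.097), none with a call. With each library left out Col1a1 ran from -1.23 to 0.037 and Chil3 from -0.094 to 0.097, and Col1a1 was called lower without RXRKO replicate 3. Deviations of same-numbered libraries correlated at 0.053, -0.28 and -0.26. The highest correlations were 0.31, for WT replicate 2 with RXRKO replicate 3, and 0.25, for WT replicate 3 with RXRKO replicate 2. Deviations within 3 libraries a genotype cannot decide whether libraries were paired. With the replicate number as a block, 709 genes rose and 666 fell, 13 genes of the related lists rose, and Cd163 stood at 0.71 (adjusted p = 0.106). Of the 49 other named genes with a test, 36 kept direction and call in every alternative that gave them a value. Without a filter on low counts the median over all genes moved to 0.12.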
